A study of Homo sapiens with 10 samples.

Results

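The MYC and PVT1 locus was taken as a window of 3.5 Mb that ends at 130 Mb of chromosome 8 (hg38). It runs from -1235 to 2265 kb around the MYC start, and all positions in kb below are counted from that start, with upstream ones negative. Its members were all H3K27ac peaks lying in it in each of 8 deposited peak lists. The lists together held 334329 peaks on chromosomes 1 to 22 and X, and 692 of them were in the window. When peaks that overlapped by at least 1 bp were joined across the lists, the window gave 143 of 76044 merged regions. They were chosen by position and not by a measured value, though with earlier results of these data known.

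MYC encodes a basic helix-loop-helix leucine zipper transcription factor that drives cell growth and division and binds E-box sequences together with its partner MAX. Its neighbour PVT1 is a long non-coding RNA gene, and its body holds enhancers of MYC. MYC is regulated by elements spread far to both sides of the gene, which differ between tissues, and 8q24 is among the regions most often gained in breast tumours. Acetylation of histone H3 at lysine 27 (H3K27ac) marks active promoters and enhancers, and its peaks therefore outline the elements in use in a given cell.

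H3K27ac ChIP-seq was carried out in SKBR3 and MDA-MB-453, both established HER2 breast cancer cell lines. All cells, untreated ones included, were described under one protocol in which they were kept for 8 h in a serum-reduced medium. Treated cells then received 10 ng/ml of TWEAK, a TNF-family cytokine that signals through the receptor Fn14, for 48 h with a fresh dose at 24 h. For either line there were 2 libraries without and 2 with TWEAK, and the 2 input samples were not used here. Both lines are single cultured lines, so a line difference cannot be told apart from any other property in which these lines differ. Per the study's methods the libraries are biological replicates, and the labels do not say which cultures they came from. The p-values here measure the spread between these libraries.

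The lists of SKBR3 held 43684 to 51687 peaks and those of MDA-MB-453 held 36148 to 37813. Read depth was unknown, so no counting interval is given. Of 11 luminal and HER2 marker genes, 10 had a promoter peak in all 4 SKBR3 lists and 11 had one in all 4 MDA-MB-453 lists. Of 8 markers of other cell types, COL1A1 had a promoter peak in every list and KRT5 in both TWEAK lists of SKBR3 only, and the other 6 had none.

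H3K27ac covered more of the locus in MDA-MB-453 than in SKBR3. In the order untreated 1, untreated 2, TWEAK 1 and TWEAK 2, which is kept for all values that follow, peaks covered 175, 144, 187 and 191 kb in SKBR3. They covered 220, 232, 226 and 220 kb in MDA-MB-453. The lines did not overlap, and the means were 174 ± 21.3 kb and 225 ± 5.59 kb (SD, n = 4 each), a difference of -50.3 kb (two-sided exact permutation test over 70 assignments, p = 0.0286, the smallest this design allows, adjusted p = 0.0643 over 9 tests).

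The gap was wider relative to each whole list, since the SKBR3 lists covered more of the genome. The locus took 0.182%, 0.156%, 0.194% and 0.181% of all covered bases in SKBR3. It took 0.313%, 0.322%, 0.313% and 0.311% in MDA-MB-453, so again every MDA-MB-453 library was above every SKBR3 library (difference -0.136 percentage points, exact permutation p = 0.0286, adjusted p = 0.0643). The window is 0.115% of the length of these chromosomes. Set against the covered share of the genome in the same list, the locus was covered 1.35- to 1.68-fold more densely in SKBR3 and 2.69- to 2.79-fold more densely in MDA-MB-453.

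The number of peaks did not separate the lines. SKBR3 had 75, 69, 92 and 95 locus peaks and MDA-MB-453 had 85, 91, 94 and 91. The ranges overlapped, and the difference of means of -7.5 peaks gave p = 0.4 (exact permutation test, adjusted p = 0.45). It was -11.6 without SKBR3 TWEAK 2 and -2.92 without SKBR3 untreated 2. When each list was cut to the same number of peaks by p-value, the difference was -17 peaks (exact permutation p = 0.0286).

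**Figure D1:**
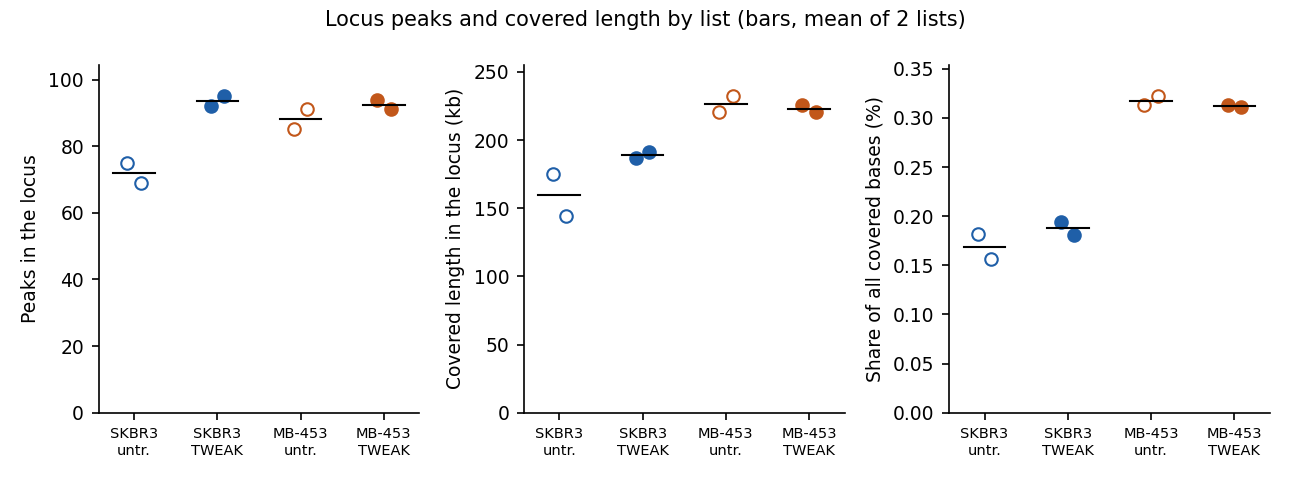
Peaks in the locus (left), covered length in kb (middle) and share of all covered bases of the list in percent (right) for the 8 lists. Each circle is 1 library, open for untreated and filled for TWEAK, and each bar is the mean of 2. MDA-MB-453 lies above SKBR3 in covered length (220 to 232 kb against 144 to 191 kb) and in share, while peak numbers overlap.

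MYC itself carried a promoter peak in every list. The promoter lay in one broad merged region at chr8:127732427-127743484, 11.1 kb wide, which covers the annotated MYC start at 127735434, the gene body and the start of the divergent lncRNA gene CASC11. Its fold enrichment over input was 3.57, 4.75, 3.51 and 3.51 in SKBR3 and 12.3, 11.9, 10.9 and 10.1 in MDA-MB-453. All 4 MDA-MB-453 values were above all 4 SKBR3 values.

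Ranks within a list remove differences in overall scale between libraries. A percentile gives the share of a list's peaks with an equal or lower value, and by fold enrichment the MYC promoter stood at 48.9, 56.4, 38.4 and 39.8 in SKBR3. It stood at 84.2, 84.8, 82.8 and 80.7 in MDA-MB-453, a difference of means of -37.3 percentile points (exact permutation p = 0.0286, adjusted p = 0.0643). The MYC promoter peak was thus near the middle of the SKBR3 lists and in the upper part of the MDA-MB-453 lists.

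This order depended on the column used. By the −log10 p of the same peaks, the MYC promoter stood at 88.9, 91.8, 84.3 and 85.7 in SKBR3 and at 89.99, 90.1, 89.0 and 87.3 in MDA-MB-453. The lines overlapped, and the difference was -1.42 points (exact permutation p = 0.486).

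PVT1 starts 59.1 kb downstream of MYC and runs for 393 kb. At the annotated start of PVT1, where the miRNA gene MIR1204 also lies, the percentile by fold enrichment was 45.0, 35.8, 29.9 and 20.8 in SKBR3 and 92.7, 94.0, 92.4 and 92.7 in MDA-MB-453. The difference was -60.1 points (exact permutation p = 0.0286). By −log10 p it was -30.3 points with no overlap between the lines, so at this start both columns placed MDA-MB-453 higher. This definition was chosen after the lists were seen.

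When the best peak at any of the 132 annotated PVT1 starts was taken, it lay inside the gene, in a merged region centred at 127.3 kb. The best peak was not the same in every list. In SKBR3 TWEAK 2 it was at chr8:127850748-127856603 and in MDA-MB-453 TWEAK 2 at chr8:127857562-127873161, which do not overlap. Its percentile by fold enrichment was 91.8, 87.3, 89.4 and 88.5 in SKBR3 and 98.1, 98.4, 95.3 and 97.6 in MDA-MB-453 (difference -8.07 points, exact permutation p = 0.0286, adjusted p = 0.0643). By −log10 p the order turned, with 99.8 to 99.9 in SKBR3 and 98.1 to 99.4 in MDA-MB-453 (difference 0.822 points, exact permutation p = 0.0286).

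**Figure D2:**
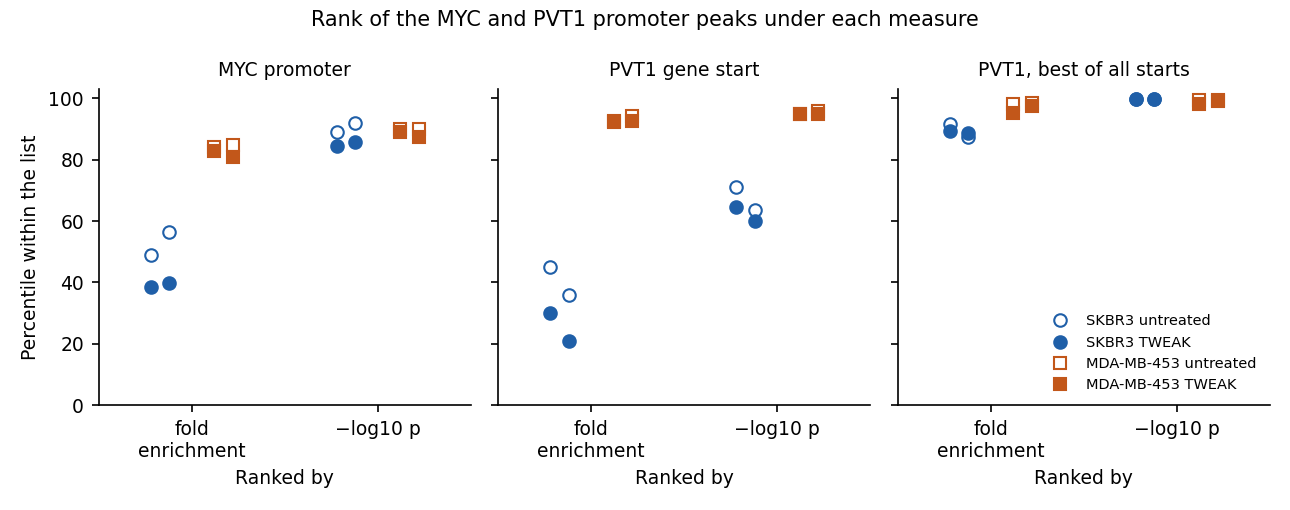
Percentile within the list of the promoter peak of MYC, of the annotated PVT1 start and of the best peak at any PVT1 start, ranked by fold enrichment or by −log10 p. Each point is 1 library. At MYC the SKBR3 points move from 38.4 to 56.4 by fold enrichment to 84.3 to 91.8 by −log10 p, where they overlap MDA-MB-453.

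The 2 columns were then set against each other for all locus peaks. For each peak the −log10 p was divided by the median −log10 p of peaks outside the locus, in the same list, whose fold enrichment was within 10% of its own. A ratio near 1 marks a peak whose p-value is usual for its enrichment. In SKBR3, 23, 25, 28 and 35 locus peaks had a ratio of at least 2, which is 30.7%, 36.2%, 30.4% and 36.8% of the locus peaks. In the rest of the same lists the share was 0.847% to 1.11%.

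No MDA-MB-453 locus peak reached a ratio of 2, against 0.286% to 0.408% of peaks in the rest of those lists, so 0 is near that background. The highest locus ratio in each list was 1.60, 1.53, 1.62 and 1.53. The SKBR3 maxima were 8.53, 8.51, 9.05 and 8.88, all at the region at -66.0 kb. The MYC promoter had 4.93, 5.42, 5.17 and 5.01 in SKBR3 against 1.47, 1.42, 1.502 and 1.47 in MDA-MB-453.

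In SKBR3 these peaks began at -700.4, -700.0, -700.3 and -902 kb and ended inside PVT1 at 323, 323, 342 and 342 kb. In TWEAK 2 only 1 such peak lay outside the stretch from -800 to 400 kb, and in the other SKBR3 lists 0 did. That stretch was chosen after these positions were seen. Within it the median ratio was 2.27, 4.13, 2.09 and 3.26, and outside it was 0.973, 0.949, 0.968 and 0.943. Some peaks inside it stayed near 1, such as the region at 52.8 kb, with 0.940, 0.932, 0.936 and 0.959.

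The SKBR3 lists also held locus peaks of very low enrichment. Of all peaks with a fold enrichment under 2 in the SKBR3 lists, 76, 59, 84 and 85 in number, 11, 7, 17 and 10 were in the locus. The MDA-MB-453 lists held 0 such peaks in the locus and 0, 1, 0 and 0 in all. The promoter of ERBB2, which encodes HER2, had ratios of 6.97, 6.45, 7.35 and 6.84 in SKBR3, and in MDA-MB-453 too few peaks were as enriched for a ratio. The ratio was added after the lists were seen.

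**Figure D3:**
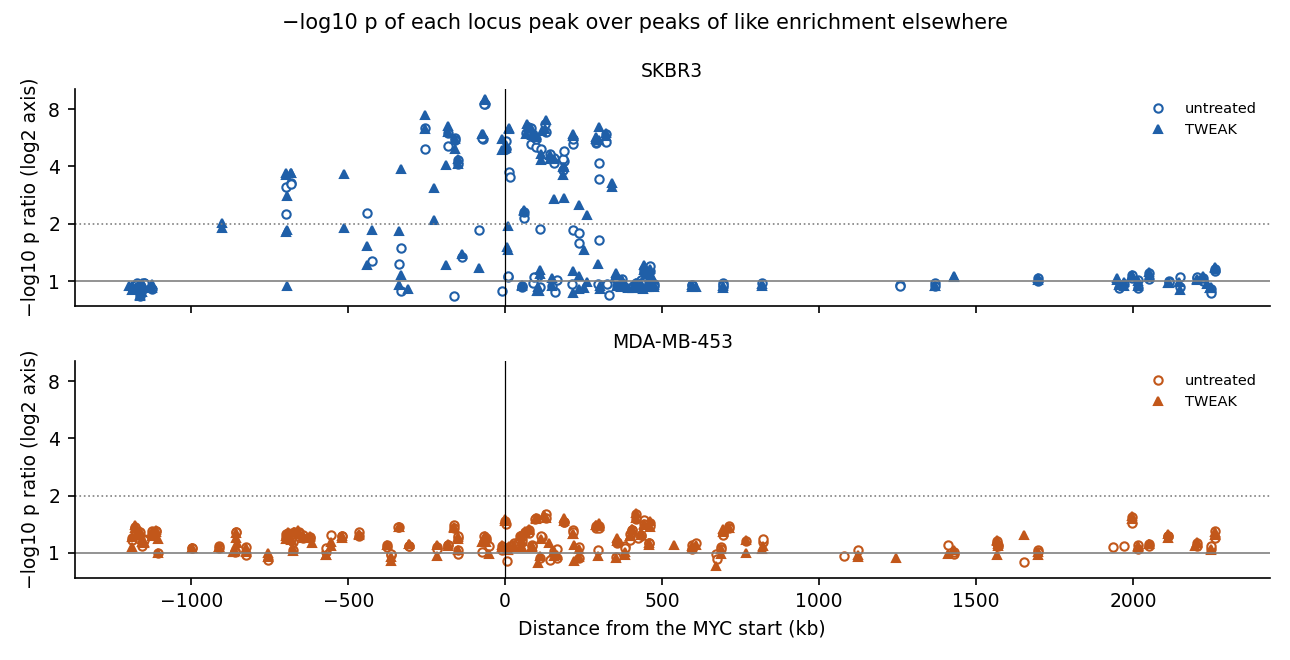
Ratio of each locus peak's −log10 p to that of peaks of like fold enrichment elsewhere in its list (log2 axis), against distance from the MYC start in kb, with 1 and 2 marked by lines. Open circles are untreated and filled triangles TWEAK libraries. SKBR3 peaks between -700.4 and 342 kb reach 8.51 to 9.05, and no MDA-MB-453 peak passes 1.62.

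Presence of peaks was compared next over the 143 merged regions. All 8 lists held 33 regions, 23.1% of the locus against 23.3% of all merged regions. Of the others, 24 were in all 4 MDA-MB-453 lists and no SKBR3 list, 16.8% against 10.5% of all merged regions. The reverse pattern was found for 7 regions, 4.90% against 14.1%. Without SKBR3 untreated 2 the latter count was 12.

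Of the 143 locus regions, 37.1% lay upstream of MYC and 55.2% in introns, and 40 were in PVT1. Of the 24 regions specific to MDA-MB-453, 17 were upstream of MYC and 7 downstream, and 1 was in PVT1. Of the 7 specific to SKBR3, 3 were upstream and 4 downstream, and 2 were in PVT1. Of the former, 14 lay in introns and 2 were within 1 kb of an annotated start.

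The MDA-MB-453-specific region of highest rank was at chr8:127265145-127272813, centred at -466 kb in an intron of the lncRNA gene PCAT1, with fold enrichments of 14.3, 15.2, 13.8 and 11.7. The next was at chr8:126873003-126881413, at -858 kb and at a PCAT1 start, with 17.1, 18.1, 16.0 and 8.57. Another lay at 47.4 kb, between MYC and PVT1, with 9.18, 9.38, 9.31 and 7.96. Each had a mean percentile of 75.4 to 88.6, and each was without any SKBR3 peak.

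The 7 SKBR3-specific regions had a median percentile of 51.0, and the 24 MDA-MB-453-specific regions one of 43.996. The highest-ranked SKBR3 region was an intronic PVT1 element at chr8:128056431-128058324, at 322 kb, with fold enrichments of 5.34, 8.19, 5.34 and 6.44. A region at -158 kb near a start of the lncRNA ENSG00000286266 had 5.29, 4.73, 5.20 and 3.23. A region at -257 kb in an exon of CASC8, had 2.91, 4.36, 4.66 and 5.97. Their mean percentiles were 74.2, 56.5 and 52.1, and the lowest of the 7, at -331 kb, had 4.34.

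One region was almost particular to MDA-MB-453 by fold enrichment rather than presence. It lay at -340 kb, chr8:127387762-127402645, was 14.9 kb wide and covered the start of the lncRNA gene CCAT2. Its fold enrichment was 32.9, 32.6, 30.2 and 26.3 in MDA-MB-453, at percentiles 99.0 to 99.5. In SKBR3 it was absent from untreated 1 and had 1.96, 1.79 and 2.06 in the other lists, at percentiles of 0.0573 to 0.213. By −log10 p these SKBR3 peaks stood at percentiles of 30.2, 12.8 and 45.2, and the MDA-MB-453 peaks at 99.5 to 99.7. The SKBR3-specific region at -331 kb lies just downstream. Being short of 4 SKBR3 lists, the CCAT2 region entered no test.

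**Figure D4:**
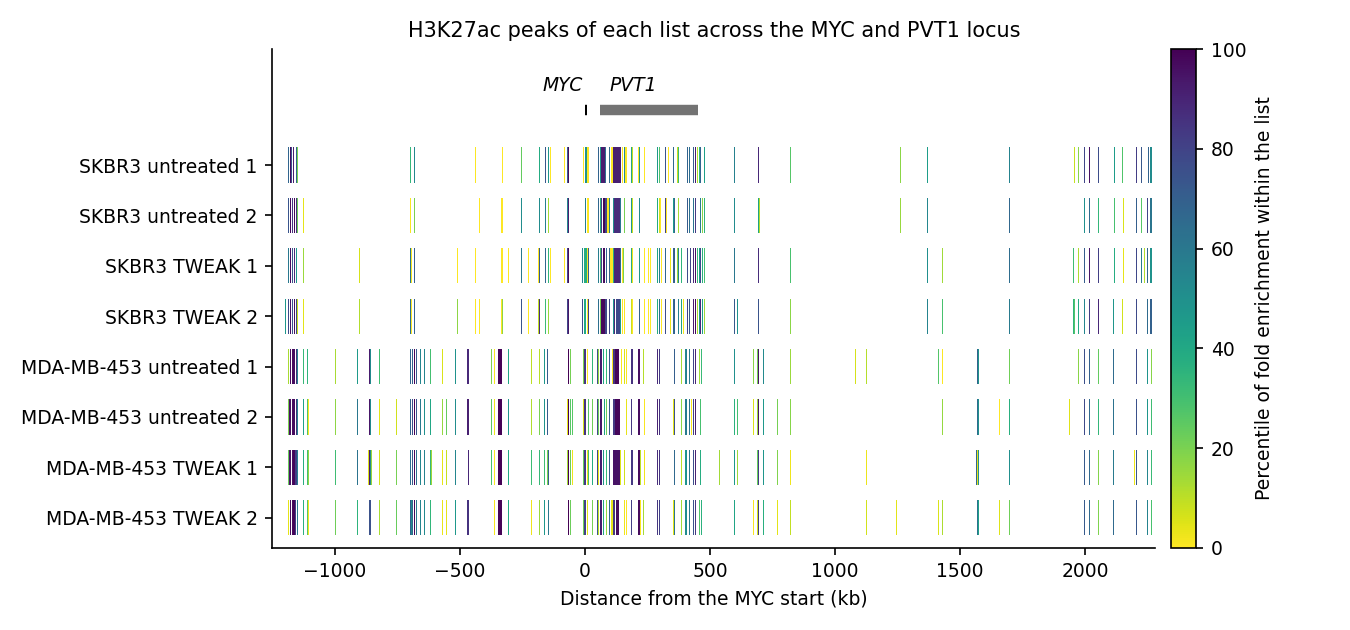
Peaks of each list along the locus in kb from the MYC start, coloured by their percentile of fold enrichment in the list, with MYC and PVT1 above. Narrow peaks are drawn wider than they are. MDA-MB-453 rows show high-percentile upstream peaks such as that at -340 kb, where the SKBR3 rows are nearly empty, and all rows are filled in the first part of PVT1.

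Of the 8 widest merged regions, most were held by both lines. The widest, 35.2 kb, lay in PVT1 at 127.3 kb, and the next, 27.9 kb, covered the PVT1 start. Others were a 20.1 kb region in a PCAT1 intron near LRATD2 and the MYC region itself. The region at 216 kb, 8.22 kb wide, held the start of the lncRNA LINC02912 within PVT1. The remaining wide regions were the CCAT2 region and the MDA-MB-453-specific PCAT1 regions at -858 and -466 kb.

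At the 33 regions held by all 8 lists, fold enrichment was compared between lines with limma on log2 values after each list was centred on its median. SKBR3 was higher at 11 and lower at 14 with adjusted p under 0.05, 33.3% and 42.4% of the locus regions against 35.2% and 32.1% of all 17704 regions tested. The median log2 difference was -0.05 in the locus and 0.03 over all regions. Without centring the median of all regions moved to -0.30, and the locus then had 6 higher and 19 lower in SKBR3 against 3193 and 8599 of all regions.

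The MYC region was lower in SKBR3 by a log2 difference of -1.23 ± 0.0980 (SE, limma adjusted p = 3.66e-07), 2.35-fold on this scale. The largest difference was at a region at -682 kb over a PCAT1 exon, chr8:127051030-127055132. Its fold enrichment was 3.77, 3.04, 5.73 and 5.44 in SKBR3 and 31.1, 30.9, 26.8 and 23.9 in MDA-MB-453 (log2 difference -2.36 ± 0.134, limma adjusted p = 2.87e-08). It was among the highest peaks of the MDA-MB-453 lists, with percentiles of 98.5 to 99.3, and ranged from 20.1 to 70.2 in SKBR3. By −log10 p the gap was smaller, with percentiles of 83.9, 65.7, 92.1 and 92.8 in SKBR3 and 98.8 to 99.3 in MDA-MB-453.

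The other large differences towards MDA-MB-453 were in PVT1 and just upstream of MYC. The region at 216 kb had 3.51, 4.48, 3.87 and 5.40 in SKBR3 and 21.7, 21.4, 21.7 and 20.3 in MDA-MB-453 (log2 difference -1.99). Its SKBR3 values come from a peak in a PVT1 intron. At the LINC02912 start SKBR3 had 1.86, no peak, 1.98 and 1.74, and MDA-MB-453 had the values given. A PVT1 region at 290.1 kb had 3.47, 3.67, 3.62 and 3.45 against 14.2, 14.7, 12.8 and 11.2 (log2 difference -1.56). PVT1 regions at 187 and 298 kb had log2 differences of -1.45 and -1.29.

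The region at -66.0 kb, chr8:127665725-127673150, was strong in both lines. It spans the start of the lncRNA ENSG00000286010, and its fold enrichment was 13.9, 12.1, 18.4 and 12.03 in SKBR3 and 50.1, 48.7, 45.6 and 38.7 in MDA-MB-453 (log2 difference -1.38, limma adjusted p = 6.07e-06). Averaged over libraries, its percentile was 95.0 in SKBR3 and 99.9 in the other line. It was the strongest locus region by fold enrichment in all 4 MDA-MB-453 lists.

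Most regions higher in SKBR3 lay beyond 400 kb. A region at -1188 kb had a log2 difference of 1.23 ± 0.131 (limma adjusted p = 4.25e-06), and one at 2051 kb, at a start of GSDMC, which encodes a pore-forming gasdermin, had 1.22 ± 0.187. Regions at 462 and 2263 kb had 1.01 and 0.70. Near MYC, the region at 52.8 kb had 4.79, 5.89, 4.51 and 4.93 in SKBR3 and 3.07, 3.27, 2.67 and 2.93 in MDA-MB-453 (log2 difference 1.08), and one at -182 kb had a log2 difference of 1.03.

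Not all strong regions differed. At LRATD2, a protein-coding gene at the upstream edge, fold enrichment was 13.7, 19.1, 16.5 and 13.2 in SKBR3 and 22.3, 20.01, 17.9 and 19.1 in MDA-MB-453, a centred log2 difference of -0.02 ± 0.111 (limma adjusted p = 0.892). The region over the PVT1 start and the first part of the gene had a log2 difference of 0.31 ± 0.162 (limma adjusted p = 0.104). There the highest SKBR3 peak was not the start itself but an element further into PVT1, with 10.1, 23.6, 18.2 and 16.4. The MDA-MB-453 values were those of the peak over the start, with 17.4, 17.7, 15.8 and 15.4, so different peaks were compared. At the start itself SKBR3 had 3.43, 3.54, 3.24 and 2.96.

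The direction of the line difference moved with the −log10 p ratio. Of the 33 shared regions, 13 had a ratio of at least 2 in all 4 SKBR3 lists, lying from -698 to 298 kb. Of these, 10 were lower and 1 was higher in SKBR3, with a median log2 difference of -1.23. The other 20 had such a ratio in no SKBR3 list, and 10 were higher and 4 lower, with a median of 0.32. The part of the ratio in these differences was not tested, and both measures use the same fold enrichment.

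**Figure D5:**
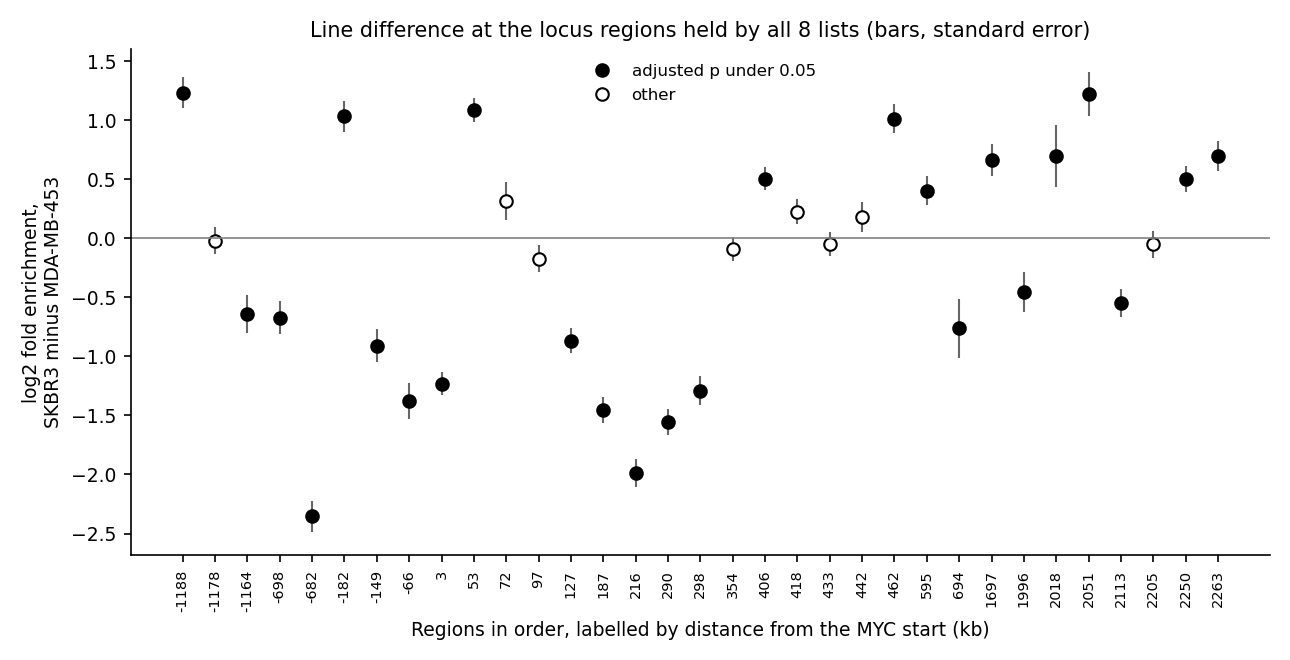
Log2 difference in centred fold enrichment, SKBR3 minus MDA-MB-453, at the 33 regions present in all 8 lists, in genomic order and labelled by kb from the MYC start. Bars are standard errors and filled points have a limma adjusted p under 0.05. Values from -698 to 298 kb are mostly negative, down to -2.36, and most beyond 400 kb are positive.

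With TWEAK, SKBR3 showed more locus peaks, 92 and 95 against 75 and 69 untreated, and the gained regions were mostly low in fold enrichment. As a share of all peaks of the list these were 0.203% and 0.184% against 0.166% and 0.158%. The difference in peak number was not tested. Covered length was 175 and 144 kb untreated and 187 and 191 kb with TWEAK, a difference of 29.4 kb that was 13.7 kb without untreated 2 and 45.1 kb without untreated 1. MDA-MB-453 had 220 and 232 kb without and 226 and 220 kb with TWEAK, a difference of -3.33 kb that was 2.54 kb without untreated 2. With 2 libraries against 2 the exact permutation test cannot go below 0.33, and it gave p = 0.33 and 0.667. As a share of all covered bases, the SKBR3 treatments overlapped, with 0.182% and 0.156% untreated and 0.194% and 0.181% with TWEAK. The basal keratin gene KRT5 had promoter fold enrichments of 3.90 and 4.66 in the TWEAK lists and no peak in the untreated ones, and its part in the TWEAK differences was not tested.

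The MYC promoter was not raised by TWEAK in rank. Its percentile by fold enrichment was 48.9 and 56.4 in untreated SKBR3 and 38.4 and 39.8 with TWEAK. For MDA-MB-453 the percentiles were 84.2 and 84.8 without TWEAK, then 82.8 and 80.7. The differences were -13.5 and -2.72 points, with no overlap in either line and exact permutation p = 0.33 in each, the smallest possible.

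Over regions merged within SKBR3, 15 of 108 locus regions were present in both TWEAK lists and neither untreated list, 13.9% against 4.61% of all SKBR3 regions. The reverse was 1 region, 0.926% against 1.4%, a CCDC26 intron at 1258 kb with fold enrichments of 2.80 and 2.92. Without untreated 1 the gained count was 25, and leaving out any library raised the lost count to between 2 and 8.

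Of the 15 gained SKBR3 regions, 5 were in PVT1, against 40 of the 143 locus regions merged over all 8 lists. The gained regions had a median mean-percentile of 8.64 by fold enrichment. The highest was in an intron of CYRIB, which encodes a RAC1-binding regulator of the actin cytoskeleton, at the far downstream edge of the window, with 4.80 and 5.19 and a mean percentile of 64.0. The region at 458 kb had 3.45 and 3.97, and that at 382 kb in PVT1 had 3.399 and 3.60. Those at 1951, 1429 and -697 kb were lower, with mean percentiles of 32.6, 21.7 and 10.2. Of the 15, 5 overlapped a peak in at least 1 MDA-MB-453 list. By −log10 p some gained regions ranked higher than by fold enrichment. That at 342 kb had percentiles of 64.0 and 64.4 by −log10 p and 2.46 and 2.75 by fold enrichment. Others were low by both, such as that at 303 kb, with 7.90 and 11.5 by −log10 p.

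In MDA-MB-453, 2 locus regions were gained, 1.94% against 1.33%, and 0 were lost against 1.3%. One was in a PCAT1 intron at -866 kb with 2.71 and 2.99. The other lay over the end of MYC itself, at chr8:127742199-127743395, with 2.60 and 2.75. Both were at low percentiles, 8.40 and 3.36, and leaving out any library gave 4 to 7 gained and 2 to 4 lost.

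At regions held by all 4 SKBR3 lists, 2 of 48 locus regions rose with TWEAK (limma adjusted p under 0.05), 4.17% against 1.14% of 30803 regions, and 0 fell against 0.026%. At an unadjusted p under 0.05, 11 were higher, 22.9% against 5.77% of all regions, and 0 lower against 2.62%. The first was an intergenic element at 13.5 kb, chr8:127747778-127750173. Its fold enrichment was 2.40 and 2.40 in untreated SKBR3 and 5.84 and 7.42 with TWEAK (log2 difference 1.38 ± 0.223, limma adjusted p = 0.000543), with percentiles of 0.981 and 0.893 untreated and 71.0 and 81.6 with TWEAK. Its −log10 p percentile was 73.0 and 61.7 untreated and 97.0 and 99.3 with TWEAK.

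The second was a PVT1 intron element at 433 kb, chr8:128167223-128169651. Its fold enrichment was 4.95 and 5.27 untreated and 10.2 and 11.01 with TWEAK (log2 difference 0.97 ± 0.218, limma adjusted p = 0.0175). This call was lost without untreated 1, untreated 2 or TWEAK 2, in fits that leave 1 library in a group. Leaving out 1 library at a time, the log2 difference was 0.879 to 1.05. In MDA-MB-453 the same region had 10.6 and 10.5 untreated and 8.94 and 8.47 with TWEAK. With the library numbers as a block in the fit, 9 SKBR3 locus regions rose, 18.8% against 3.56% of all regions.

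Other SKBR3 elements around MYC had larger values with TWEAK but did not pass, or could not enter, the test. The region at -182 kb had 3.23 and 4.37 untreated and 6.07 and 8.69 with TWEAK (log2 difference 0.87 ± 0.226, limma adjusted p = 0.0532). A CASC11 intron region at -10.6 kb was absent from untreated 2, had 1.77 in untreated 1 and had 4.31 and 6.55 with TWEAK. Both were named after their values were seen.

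In MDA-MB-453, 1 of 69 locus regions fell with TWEAK, 1.45% against 0.0481% of 31162 regions, and 0 rose against 0.00321%. At an unadjusted p under 0.05, 7 were lower, 10.1% against 4.52% of all regions, and 0 higher against 4.14%. The region was at chr8:128426984-128430977, at 694 kb and at a start of the lncRNA LINC00824. Its fold enrichment was 19.5 and 18.1 untreated and 10.8 and 10.5 with TWEAK (log2 difference -0.80 ± 0.113, limma adjusted p = 0.0265). With the library numbers as a block in the fit, no locus region passed (smallest limma adjusted p = 0.0670). The call was also lost without untreated 1, in a fit that leaves 1 library in a group. Leaving out 1 library at a time, the log2 difference was -0.855 to -0.744. In SKBR3 this region had 8.51, 3.80, 9.66 and 6.11, where the untreated libraries differed more from each other than the means of the treatments did.

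The TWEAK effects of the lines were compared directly at the 33 shared regions, a contrast added after the lists were seen. In limma, 0 passed an adjusted p of 0.05 against 0.0169% of all regions, and 12 had an unadjusted p under 0.05, 36.4% against 7.27%. The smallest adjusted p, 0.0799, was at the PVT1 region at 433 kb, where the SKBR3 effect exceeded that in MDA-MB-453 by 1.26 ± 0.208 on the log2 scale.

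Wide clusters of peaks were ranked in each list as in super-enhancer calling, by joining peaks across the default gap of the ROSE procedure, leaving out those lying wholly within 2.5 kb of a start, and ordering clusters by width times fold enrichment. Wider peaks that cover a start, such as those at LRATD2 and CCAT2, therefore stayed in. Reads were not used, so these are called super-enhancer-like. The locus held 1, 2, 1 and 2 in SKBR3 and 7, 6, 6 and 6 in MDA-MB-453. These were 0.109%, 0.206%, 0.130% and 0.188% of all such clusters in SKBR3. In MDA-MB-453 they were 0.821%, 0.706%, 0.727% and 0.683% of 825 to 879 clusters per list. The score uses fold enrichment, which ranked SKBR3 peaks near MYC otherwise than −log10 p did. In SKBR3 the clusters were in and just before PVT1, with a best rank of 109, 370, 145 and 337 among 767 to 1066 such clusters per list.

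In MDA-MB-453 the locus was more often among the top clusters. The PVT1 cluster ranked 20 and 26 in untreated 2 and TWEAK 2, where it ran as one cluster of 91.8 and 91.6 kb, and 66 and 63 in the other lists, where it was split. The cluster of LRATD2 and PCAT1 ranked 62, 66, 78 and 70. The CCAT2 cluster ranked 131, 89, 118 and 150, and the one around -66.0 kb ranked 351, 199, 204 and 263. None of the latter 3 was called in any SKBR3 list.

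Of 49 annotated genes with a start in the window, 31 had no peak within 1 kb of a start in any list. In all 8 lists, 11 had one: MYC, PVT1, CASC11, MIR1204, PCAT1, LRATD2, LINC00824, CYRIB, GSDMC, ENSG00000253720 and ENSG00000286010. These are not all separate peaks, since CASC11 was held by the same peak as MYC, and PCAT1 by the same as LRATD2. ENSG00000253720 shared the CYRIB peak in part of the lists. How often genes elsewhere had a promoter peak in all 8 lists was not counted. CCAT2 had one in the 4 MDA-MB-453 lists only and CCDC26 in the 4 SKBR3 lists only. The other 5 were held by part of the lists, among them LINC02912, by 3 SKBR3 and 4 MDA-MB-453 lists. The mature and precursor miRNA genes within PVT1 other than MIR1204 had no promoter peak.

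Promoter peaks of genes whose products work with MYC or are related to it, here called its network, were listed as a description. The share of all genes with a promoter peak in all 8 lists was not counted. Of 12 genes of the network, 9 had a promoter peak in all 8 lists: MAX, the obligate partner, the repressors MNT, MGA, MXD1, MXD3, MXD4 and MXI1, and MLX and MLXIP of the parallel sugar-sensing branch. Of their 10 tested regions, 0 were higher in SKBR3 against 35.2% of all regions, and 3 were lower against 32.1%, at MGA (log2 difference -1.07, limma adjusted p = 3.01e-06), MXD4 (-0.95, limma adjusted p = 6.99e-05) and MLX (-0.50, limma adjusted p = 0.00126). A second MGA region had -0.24 ± 0.130 (limma adjusted p = 0.12). The MLX region also holds other peaks, and the peak at the MLX start alone had fold enrichments of 5.05, 6.59, 5.27 and 3.98 in SKBR3 and 5.11, 4.56, 4.98 and 4.94 in MDA-MB-453, which overlap. MAX had 0.07 ± 0.104 (limma adjusted p = 0.585). MYCL, a paralog of MYC, had a promoter peak in all 4 MDA-MB-453 lists and in 0 of SKBR3, while MYCN had one in 1 SKBR3 and 2 MDA-MB-453 lists.

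Short motifs were counted in 1000 bp around the midpoint of each region, on both strands. The AP-1 motif TGANTCA was in 37.8% of locus regions and 34.0% of all merged regions, the FOX motif TGTTTAC in 16.8% and 18.5%, and the NF-kB motif in 11.2% and 13.8%. The E-box CACGTG, the site of MYC and MAX, was in 4.196% of locus regions and 11.7% of all. The match of letters is a description and not evidence of binding.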

How the data were processed

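H3K27ac ChIP-seq peak lists of 8 libraries were analysed, 1 list per library with 2 libraries per group. Per the study's methods and the labels, the authors trimmed reads (Trimmomatic), aligned them to hg38 (Bowtie2), called peaks with MACS2 against input and removed blacklisted regions. Calling options and tool versions are not given in the sources used here. The deposited lists hold a score, the fold enrichment (a ratio to input) and the −log10 p-value and −log10 q-value of each peak. The lowest −log10 q was 1.00 to 1.02 in all lists.

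The 520 peaks outside chromosomes 1 to 22 and X were left out. Promoters were peaks within 1 kb of a GENCODE release 44 start, and a merged region was represented in each list by its peak of highest fold enrichment. Lines (4 against 4) and treatments (2 against 2) were compared by two-sided exact permutation tests, with Benjamini-Hochberg adjustment over 9 tests. Fold enrichment at regions held by all lists concerned was compared with limma 3.58.1 (R 4.3.3) on log2 values, centred on each list's median, with adjustment over all regions tested. The limma fits were also run on simulated data with noise drawn independently for each library. Such data do not hold deviations shared by same-numbered libraries, so they cannot check the fits in that respect. Named regions were MYC, PVT1, every other gene with a start in the locus, the 8 widest regions, the highest-ranked line-specific regions and those gained, lost or called. The members and lists were chosen with earlier results of these data known. Alternatives tried were a stricter q, equal list sizes, other ranks, a narrower window, other merging, other scaling, leaving out each library and a replicate block. The result of 1 marker gene is not reported here.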

Additional observations from a re-analysis of the deposited data

How the results depend on the processing

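The line differences in covered length and share kept their sign under a stricter q, equal list sizes, the narrow window and each left-out library, and MYC rank under a stricter q and each left-out library. Covered length was -24573 bp and the share -0.0872 in the narrow window, and MYC rank was -67.6 points at the stricter q. For PVT1 the rank by −log10 p turned the sign (0.822 points) and for MYC it left -1.42 points; peak number became -17 in lists of equal size. Leaving out 1 library at a time, TWEAK changed covered length in MDA-MB-453 by -9196 to 2538 bp. Counts of SKBR3-specific regions were 4 in lists of equal size, 11 when a peak had to fill 50% of the region, and 7 to 12 without 1 library. Gained regions in SKBR3 numbered 5 at a −log10 q of 5 or more and 19 to 25 without 1 library, and lost regions 0 at that q and in equal lists, 2 at 50% and 2 to 8 without 1 library. In MDA-MB-453 gained regions numbered 0 at that q, 4 in equal lists and 1 in the narrow window or with 1 kb merging, lost regions 1 in equal lists or at 50%, and the ranges without 1 library were 4 to 7 and 2 to 4. Joining across 5 kb gave a mean of 2.75 super-enhancer-like clusters in SKBR3 lists and 7 in MDA-MB-453 lists. Limma calls higher with TWEAK in SKBR3 numbered 1 of 36 locus regions at the stricter q, against 40 of all 15513 regions. With quantile normalization they numbered 1 of 48, against 167 of 30803. In MDA-MB-453 there were 0 of 69 with quantile normalization, against 1 higher and 1 lower of 31162. Fits without 1 library leave 1 library in a group, and the calls changed in both lines. Gained, lost and line-specific counts without 1 library require presence and absence in fewer lists, which by itself loosens their definition. The shares of all regions gained, lost or line-specific were not counted under these alternatives. The cause of these changes was otherwise not tested.

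Same-numbered libraries shared deviations in SKBR3 (r = 0.353) and not in MDA-MB-453 (r = -0.0145), and the numbers were not taken as pairs. With the replicate block, limma called 9 SKBR3 locus regions with TWEAK, all higher (18.8%, against 3.56% higher and 0.704% lower of all regions), and 0 MDA-MB-453 locus regions (against 0.00321% higher and 0.0289% lower of all), and the line tests of covered length (-50301 bp), share (-0.136), MYC (-37.3) and PVT1 (-8.07) rank gave p = 0.0556 (exact permutation within numbers), the smallest it allows. Read depth was unknown, so weak peaks cannot be told apart from undetected ones.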
